A study of Mus musculus with 5 samples.

Results

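Heat shock chaperones are proteins that fold, hold and refold other proteins. The 10 genes described here, of 24399 genes in the deposited table, are Hsf1, which encodes heat shock factor 1, and 9 chaperone genes known as targets of that factor. They were chosen by name from textbook knowledge of the heat shock pathway, with earlier results of these data known. Each was represented in the table by 1 transcript. Not all are cytosolic: Hspd1 and Hspe1 encode the chaperonin HSP60 and its lid HSP10, which work in the mitochondrial matrix, and Hsf1 encodes a transcription factor and not a chaperone.

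In unstressed cells HSF1 is held inactive by chaperones. When unfolded proteins draw the chaperones away, the factor forms trimers and binds heat shock elements, repeats of the unit GAA and its reverse complement, before chaperone genes. HSP70 proteins bind short hydrophobic stretches of unfolded clients, J-domain proteins such as DNAJB1 deliver the clients and trigger ATP hydrolysis, and HSP110 proteins such as HSPH1 release the nucleotide so that the cycle can start again. HSP90 proteins act later, on nearly folded kinases and receptors. In blood-forming stem cells, protein synthesis is known to be kept low, and protein quality control is known to bear on their self-renewal.

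Messenger RNA was sequenced in LSK cells, named after the absence of Lineage antigens and the presence of Sca1 and cKit on their surface. This bone marrow fraction, which holds stem and multipotent progenitor cells, was sorted from C57BL/6 mice aged 12 months. The title of 3 libraries reads KO and that of 2 reads WT. The series concerns a germ-line knockout, but the genotype field of the libraries titled KO reads heterozygous, so they are called KO-labelled; the WT libraries carry a wild-type genotype. The labels list no treatment for either group. They do not say whether the libraries came from separate animals, so the p-values reflect variation between these 5 libraries, part or all of which could be technical.

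Total counts with 1 transcript per gene ran from 29964556 to 39691066 per library, and the floor of 3 counts lay between 0.0756 and 0.1001 CPM (counts relative to the library total after TMM scaling). Across genes, pairs of libraries correlated at 0.9525 to 0.9802 on log2 CPM, with KO-labelled library 1 at no more than 0.965 with any other. The LSK markers (10 of 10 measured) summed to 3815 to 4104 CPM in KO-labelled and 4027 to 4045 CPM in WT libraries. Marker sums of other lineages moved with the groups. The 8 red cell genes summed to 205 to 292 against 128 to 133 CPM, the 8 neutrophil and monocyte genes to 2779 to 3407 against 3813 to 4178 CPM, and the 6 megakaryocyte genes to 346 to 554 against 614 to 706 CPM. The last list was mixed: Itga2b and Gp1ba fell (log2 fold changes -0.65 and -0.79), Pf4 and Ppbp lay higher in the KO-labelled libraries without a call (0.79 and 1.46), and most of the sum came from Vwf and Itga2b. Most of the red cell sum came from Car1 (126.3 to 210.4 against 79.9 to 80.9 CPM). Of that list Klf1, Car1 and Slc4a1 were called higher (log2 fold changes 1.5, 1.08 and 2.21) and 0 lower, Slc4a1 only just (adjusted p = 0.0499 by edgeR). Most of the neutrophil and monocyte sum came from Mpo (2219.5 to 2868.7 against 3102.8 to 3442.5 CPM), which was not called. Of that list S100a8 and S100a9 were called lower (-0.82 and -0.75) and 0 higher. The B cell markers (51.0 to 58.2 against 44.5 to 56.3 CPM) and the T cell markers (42.5 to 63.1 against 42.6 to 44.1 CPM) overlapped between groups, and Cd3e stayed at or below 3.24 CPM. The part of these lineage differences in the results that follow was not tested, and in such bulk samples fewer cells of a type and less RNA per cell cannot be told apart.

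Heat shock elements mark the promoters through which HSF1 acts, so the RefSeq promoter windows (GRCm38.p6, 250 bases before to 50 after a start site) were searched for 3 alternating units, GAANNTTCNNGAA or its reverse complement TTCNNGAANNTTC, and for 2 units, GAANNTTC or TTCNNGAA, each of which is its own reverse complement and lies within the longer motif. Of the 10 genes, 6 had a window: Hsph1, Hspa1a, Hspa1b, Dnajb1, Hspd1 and Hspe1. Hspa8, Hsp90aa1, Hsp90ab1 and Hsf1 had none in the table. The 3-unit motif was present at 3 of the 6 genes (Hsph1, Hspd1 and Hspe1), against 0.662% of the 27025 genes with a window. A 2-unit motif was present at 5 of the 6, Dnajb1 being the exception, against 4587 of the 27025 genes. These 6 genes were chosen as known targets of HSF1, so both counts follow in part from that choice. Only exact units at this fixed spacing were searched for, so a window without a match could still hold an element of another form. The windows of Hspd1 and Hspe1, which lie head to head on opposite strands, hold the same run of 4 units, and each gene's own strand is shown. Chordc1, a co-chaperone outside the 10 genes that is described below, is shown because its start site carries a run of 5 units. The Hsph1 run lies at bases 16 to 28 from 1 of its start sites and at bases 37 to 49 from the other, with each start site as base 1. Capitals mark the run of units.
Hsph1 (chr5:149636281-149636307, minus strand): ctgcagaTTCTGGAAAGTTCtcctcag
Hspd1 (chr1:55088054-55088081, minus strand): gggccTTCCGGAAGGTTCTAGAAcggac
Hspe1 (chr1:55088054-55088081, plus strand): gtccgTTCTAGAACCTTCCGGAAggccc
Chordc1 (chr9:18292261-18292287, plus strand): cgGAACGTTCGGGAAAATTCCTGAAgc

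Hspa1a and Hspa1b are the stress-inducible HSP70 genes and near copies of each other. Their 300-base windows were identical at 296 positions (98.7%) and differed at C44T, T47C, T249G and C276T, counted from 1 at the 5′ end of the window with the Hspa1a base first. Each held 1 match to the 2-unit motif, starting 104 bases before the start site and shown in capitals. The 250 bases before each start site are shown because they display how far the copies agree, and the same holds for their transcripts, whose shared reads limit the counts given below.
Hspa1a (chr17:34972157-34972406, minus strand): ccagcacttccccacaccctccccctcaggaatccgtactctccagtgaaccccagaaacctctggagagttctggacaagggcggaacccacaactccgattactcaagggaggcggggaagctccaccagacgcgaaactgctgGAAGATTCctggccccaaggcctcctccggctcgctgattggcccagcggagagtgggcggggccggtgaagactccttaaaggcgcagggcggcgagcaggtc
Hspa1b (chr17:34959239-34959488, minus strand): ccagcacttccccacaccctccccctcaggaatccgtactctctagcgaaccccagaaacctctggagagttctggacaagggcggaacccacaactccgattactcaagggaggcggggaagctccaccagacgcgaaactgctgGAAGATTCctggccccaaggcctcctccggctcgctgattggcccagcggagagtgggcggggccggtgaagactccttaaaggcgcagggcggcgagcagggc

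Among them 3 rose in the KO-labelled libraries and 0 fell (edgeR's quasi-likelihood test, two-sided, adjusted p under 0.05 over all 14565 tested genes). Over all tested genes 0.79% were called higher and 1.18% lower. The called genes were Hsph1, Hspa8 and Dnajb1, which encode parts of 1 HSP70 folding cycle. The log2 fold change was above 0 for all 10 genes, as it was for 50.1% of all tested genes, and its median was 0.38 over the 10 and 0.001 over all. For 7 of the 10, every KO-labelled library lay above both WT libraries, against 16.5% of all tested genes. All 10 passed the filter on low counts, but Hspa1a and Hspa1b, at 0 to 13 counts in WT, would not have passed on their WT libraries alone. These near copies, which may share reads, are among the 10, the 7 and the 6 at an unadjusted p given below. They lend those counts no support. Because the genes were chosen with earlier results of these data known, their counts are not independent of that choice. At an unadjusted p under 0.05, 6 were higher and 0 lower, against 6.76% higher and 7.02% lower over all tested genes, which is the background for every unadjusted count below. The count of 3 became 1 without WT library 1, 5 without KO-labelled library 1 and 5 with DESeq2.

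**Figure D1:**
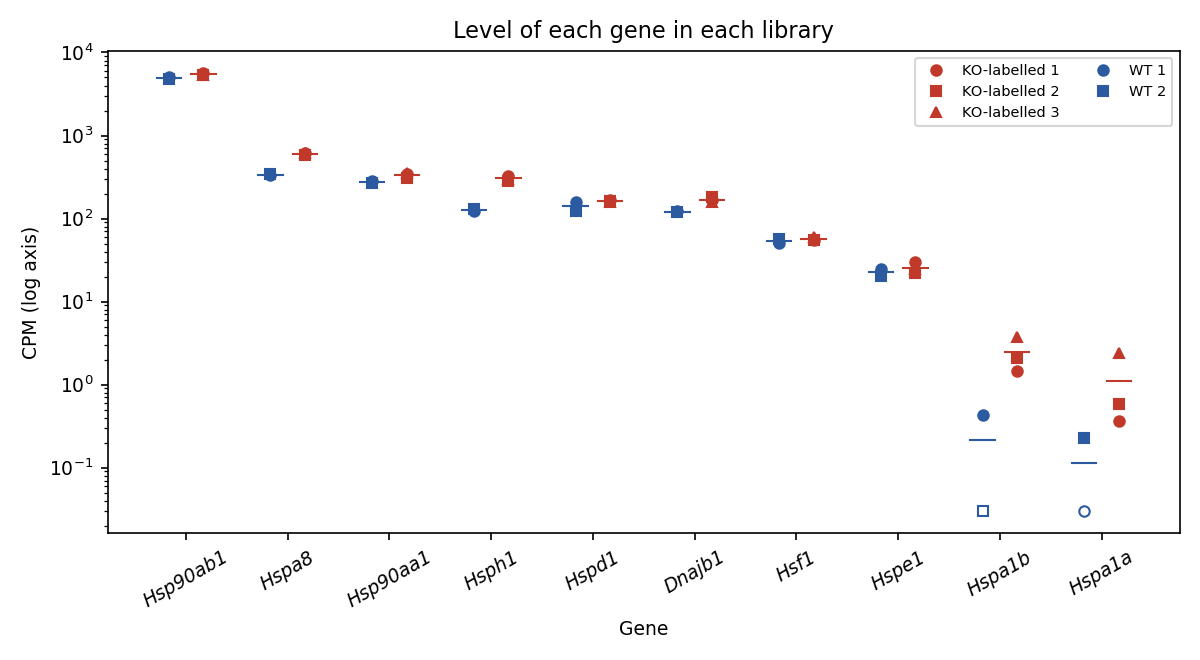
Level of each of the 10 genes in CPM (vertical log axis) in each library. Red symbols are the 3 KO-labelled and blue symbols the 2 WT libraries, short lines are group means, and open symbols at the bottom are libraries with 0 counts. Hsph1 and Hspa8 show the clearest gaps among the well measured genes, whereas Hspa1a and Hspa1b reach at most 2.41 and 3.77 CPM.

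Hsph1, the HSP110 nucleotide exchange factor, had 328, 282 and 303 CPM in KO-labelled libraries 1, 2 and 3, whereas WT libraries 1 and 2 had 124 and 130 CPM. The lowest KO-labelled library lay far above the highest WT library, and both groups were narrow (305 ± 23.3 CPM, SD, n = 3, against 127 ± 4.08 CPM, n = 2). The log2 fold change was 1.26 ± 0.09 (SE, 95% interval 1.06 to 1.46, adjusted p = 2.13e-05 by edgeR). By unadjusted p, Hsph1 ranked 4th of the 14565 genes. It kept its call in all 14 alternative analyses, with a log2 fold change of 1.20 to 1.31.

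Hspa8 encodes HSC70, the constitutive cytosolic HSP70. It stood at 609, 581 and 610 CPM in KO-labelled libraries and at 336 and 343 CPM in WT libraries, without overlap. The log2 fold change was 0.82 ± 0.08 (95% interval 0.66 to 0.99, adjusted p = 0.000192 by edgeR), and Hspa8 ranked 7th of all genes by p. The size changed little when libraries were left out (0.81 to 0.84 over the 14 alternatives), although without WT library 1 the adjusted p was 0.0564.

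Dnajb1 encodes HSP40, the J-domain partner that activates HSP70. Its level was 167, 181 and 158 CPM in the KO-labelled libraries against 124 and 119 CPM in WT. The groups did not overlap, but the gap was smaller than for Hsph1 or Hspa8. The log2 fold change was 0.47 ± 0.09 (95% interval 0.27 to 0.67, adjusted p = 0.0182 by edgeR). The call was lost without KO-labelled library 2 (adjusted p = 0.0565), WT library 1 (0.275) or WT library 2 (0.286), with log2 fold changes of 0.42, 0.51 and 0.45.

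The 3 called genes did not move in proportion. Within each library the ratio of Hsph1 to Hspa8 CPM was 0.539, 0.485 and 0.497 in KO-labelled libraries and 0.370 and 0.379 in WT libraries, so that the exchange factor lay higher against its HSP70 partner in every KO-labelled library. The ratio of Dnajb1 to Hspa8 went the other way, at 0.274, 0.311 and 0.258 against 0.368 and 0.347. The 95% intervals of the 3 log2 fold changes touch only between Hspa8 and Dnajb1, where 0.66 and 0.67 meet; the differences between genes were not tested.

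The inducible pair Hspa1a and Hspa1b was barely expressed. Hspa1a had 13, 23 and 95 counts in KO-labelled libraries 1, 2 and 3, with 0 in WT library 1 and 9 in WT library 2, and Hspa1b had 52, 83 and 149 against 13 and 0. WT library 1 had counts of Hspa1b alone, and WT library 2 of Hspa1a alone. Of the 50-base stretches of the Hspa1a and Hspa1b transcripts (GENCODE M21), 58.8% and 62.3% occur in the other copy, and how the counting treated shared reads is not given in the sources used here, so the split between the copies is uncertain. Separately, neither passed (adjusted p = 0.335 for Hspa1a and 0.137 for Hspa1b by edgeR), and their fitted fold changes, which rest on libraries at 0, depend on the prior count.

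Summed over both copies the counts were 65, 106 and 244 in KO-labelled libraries against 13 and 9 in WT, that is 1.80, 2.71 and 6.18 against 0.434 and 0.230 CPM. All 3 KO-labelled libraries lay above both WT libraries, with KO-labelled library 3 highest. With the copies entered as 1 gene, the sum rose with a log2 fold change of 3.43 ± 0.69 (adjusted p = 0.0222 by edgeR). In analyses added after the data were seen, that call did not hold without KO-labelled library 3 (log2 fold change 2.77, adjusted p = 0.238). It was also lost when WT library 1 (3.94, adjusted p = 0.273) or WT library 2 (3.03, adjusted p = 0.33) was left out, and under weighted limma (3.62, adjusted p = 0.108).

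The cytosolic HSP90 genes did not pass. Hsp90aa1, the stress-inducible HSP90 alpha, stood at 349, 312 and 352 CPM against 280 and 270 CPM. Its groups did not overlap (log2 fold change 0.29 ± 0.08, 95% interval 0.11 to 0.48, adjusted p = 0.117 by edgeR), and it passed in 3 of 14 alternatives: DESeq2 (adjusted p = 0.0363), limma with sample weights (0.0311) and without KO-labelled library 1 (0.0462). Hsp90ab1, the constitutive HSP90 beta and the most abundant of the 10 genes, stood at 5715, 5319 and 5325 CPM against 5072 and 4759 CPM. Its log2 fold change was 0.15 ± 0.07, with a 95% interval of -0.0024 to 0.30 (adjusted p = 0.37 by edgeR).

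The mitochondrial chaperonin pair did not separate the groups. Hspd1 stood at 167, 162 and 157 CPM in KO-labelled libraries and at 160 and 124 CPM in WT libraries, so WT library 1 lay among the KO-labelled values and WT library 2 below all of them. Its log2 fold change was 0.19 ± 0.11 (95% interval -0.04 to 0.42, adjusted p = 0.468 by edgeR), and 0.39 without WT library 1 and 0.02 without WT library 2. Hspe1 stood at 30.4, 21.8 and 24.4 against 24.8 and 20.5 CPM, with overlapping groups (0.17 ± 0.17, 95% interval -0.20 to 0.55, adjusted p = 0.731), and its log2 fold change ranged from 0.03 to 0.32 over the alternatives. The upper bounds of both intervals lay below the lower bounds of Hsph1 and Hspa8. Hspd1 and Hspe1 share the longest run of units among the 6 of the 10 genes with a window, and Hspa8 had no window. A relation between runs of units and fold changes was not tested.

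Hsf1 itself did not pass the test. Its level was 54.7, 55.9 and 59.5 CPM in KO-labelled and 50.6 and 56.3 CPM in WT libraries, with WT library 2 above 2 of the 3 KO-labelled libraries. The log2 fold change was 0.09 ± 0.11, and its 95% interval of -0.15 to 0.32 leaves room for a small change either way (adjusted p = 0.797 by edgeR). Over the alternatives the value ranged from 0.02 to 0.17. HSF1 is activated mainly at the protein level, which these data do not measure.

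**Figure D2:**
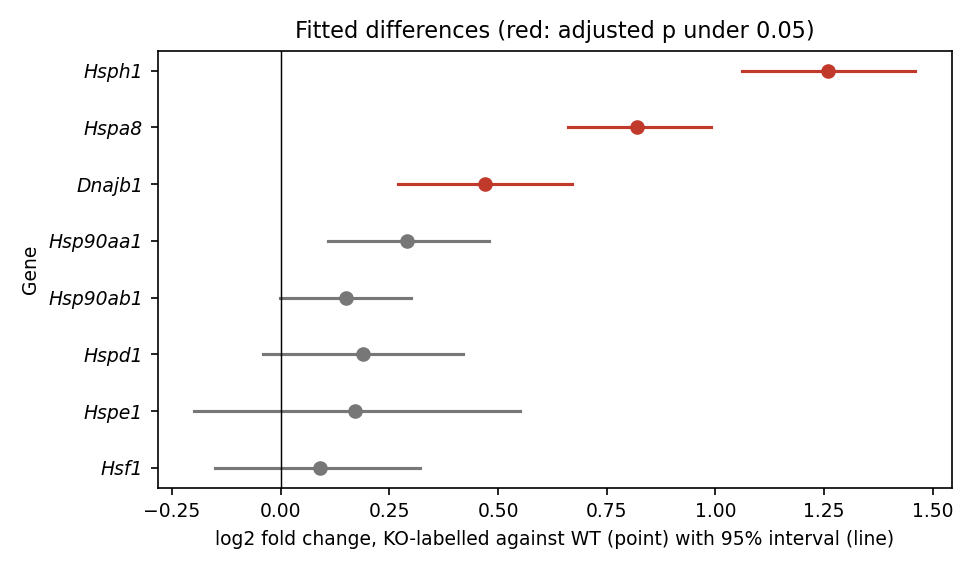
Log2 fold change of KO-labelled against WT libraries (horizontal axis) for 8 of the genes, as the fitted value (point) and its 95% interval (line); red marks genes called higher. Hsph1, Hspa8 and Dnajb1 lie apart from 0, Hsp90aa1 has an interval above 0 but no call over all genes, and the intervals of Hsp90ab1, Hspd1, Hspe1 and Hsf1 include 0. Hspa1a and Hspa1b, with libraries at 0, are left out.

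Levels were compared between genes per kilobase of the GENCODE transcript. In WT libraries the mean order was Hsp90ab1 (1951 CPM per kb), Hspa8 (142), Hsp90aa1 (83.9), Hspd1 (58.5), Dnajb1 (40.5), Hsph1 (33.4), Hspe1 (29.3), Hsf1 (26.5), Hspa1b (0.0773) and Hspa1a (0.0388). In KO-labelled libraries Hsph1, at 80.1 CPM per kb, stood above Hspd1 (66.8) and Dnajb1 (56.2), and the rest kept their order. In WT, Hsph1 (32.7 and 34.2) and Hspe1 (32.0 and 26.5), and Hspe1 and Hsf1 (25.1 and 27.9), did not differ by more than their spread. The order of Hspa1b (0.155 and 0) and Hspa1a (0 and 0.0776) reversed between the WT libraries. Hsp90ab1 held 81.8% to 82.2% of the summed CPM of the 10 genes in WT and 76.1% to 77.0% in KO-labelled libraries. These orders, the ratios to Hspa8 given above and the fold changes of Hspa8, Hsp90aa1, Hspd1 and Hspe1 carry a limit of mapping. Of the 50-base stretches of their transcripts, 74.8% for Hspa8, 58.5% for Hsp90aa1, 44.8% for Hspd1 and 44.8% for Hspe1 occur in transcripts of other genes, such as Gm15459, Gm12346 and Hspd1-ps3, against 4.5% for Hsp90ab1 and 0.0% for Hsph1 and Hsf1.

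Around the 10 genes, a set of 150 further chaperone, proteolysis and stress genes was examined, of which 143 were tested; 9 rose and 1 fell (Cirbp, described below). Among 16 HSP90 co-chaperones, 3 rose and 0 fell, 15 had a log2 fold change above 0, and the median was 0.22. At an unadjusted p under 0.05 by edgeR, 7 of them were higher and 0 lower. Chordc1, a co-chaperone of HSP90, stood at 150, 158 and 153 CPM in KO-labelled and 105 and 98.7 CPM in WT libraries (log2 fold change 0.59 ± 0.09, adjusted p = 0.00434 by edgeR). Stip1, the adaptor HOP that joins HSP70 to HSP90, stood at 435, 380 and 414 against 279 and 296 CPM (0.51 ± 0.09, adjusted p = 0.00761). Ppid, the cyclophilin CYP40, rose as well, from 49.3 ± 3.45 to 71.0 ± 5.51 CPM (0.53 ± 0.11, adjusted p = 0.0315). In each of these 3 genes the groups were separate, and 0 of the 3 kept their call when WT library 1 or WT library 2 was left out. Ppid also lost it without KO-labelled library 3 (adjusted p = 0.138) and with summed transcripts (0.0604). Without KO-labelled library 1 the count was 5, as it also was under DESeq2 and under weighted limma. Chordc1 carries the run of 5 units printed above, and the window of Stip1 held none of the motifs.

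Of 16 J-domain proteins other than Dnajb1, 1 rose, Dnajc21, a partner of HSC70 in ribosome maturation (44.9 ± 3.26 against 30.8 ± 1.89 CPM, log2 fold change 0.55 ± 0.13, adjusted p = 0.0469 by edgeR). That call was lost in 8 of 14 alternatives, with adjusted p up to 0.388. The list median was 0.14. At an unadjusted p under 0.05 by edgeR, 4 J-domain genes were higher and 0 lower, and 2 were called without KO-labelled library 1. Of 8 further HSP70 and HSP110 genes 0 passed by edgeR (median 0.09; 2 at an unadjusted p under 0.05, 2 called with DESeq2, with limma and without KO-labelled library 1), with Hspa4 at 0.11 ± 0.07 and Hspa14 at 0.23 ± 0.11 on the log2 fold change scale. Of 9 nucleotide exchange factors and other HSP70 regulators 0 passed by edgeR (median 0.22; 4 at an unadjusted p under 0.05, 1 called with DESeq2, 2 with limma and 2 without KO-labelled library 1), with St13, the HSP70-interacting protein HIP, at 0.29 ± 0.08 and Bag6, a holdase for membrane proteins, at -0.15 ± 0.11.

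Other textbook heat-induced genes were not uniformly higher. Of 15 tested, 8 were higher and 2 lower at an unadjusted p under 0.05 by edgeR. Most of the higher genes (Dnaja1, Chordc1, Hspa4l, Cacybp, Stip1 and Ahsa1) were already in the unadjusted counts of the lists above, and only Zfand2a and Hmox1 were not. The lower genes were Serpinh1 and Cryab, and Cryab is also the small heat shock gene counted as lower below. After adjustment 2 of the 15 rose (Chordc1 and Stip1, counted above) and 0 fell. A log2 fold change above 0 was found for 9, and the median was 0.29. The count was 4 with DESeq2, with limma and with no count filter, 5 without KO-labelled library 1 and 0 when WT library 1 or WT library 2 was left out. With summed transcripts 1 of these genes, Serpinh1, was also called lower. The small heat shock genes were hardly expressed: 4 of 9 were tested, 0 passed by edgeR, DESeq2 or limma (median -0.55; 1 lower at an unadjusted p under 0.05), and the most abundant, Hspb6 and Hspb8, stood at 5.94 to 9.04 and 2.0 to 6.28 CPM. Hspb1, the small heat shock protein HSP25, reached 0.102 CPM at most. Among the other heat shock factors and their binding protein, 4 of 6 were tested and 0 passed by any of these tools or at an unadjusted p under 0.05, with Hsf2 at 0.02 ± 0.15 and Hsbp1 at 0.11 ± 0.09 on the log2 fold change scale.

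In the 3 lists of bulk folding and degradation machinery that follow, edgeR, DESeq2 and limma each called 0 genes. Of 15 subunits of the chaperonin TRiC and of prefoldin 2 had an unadjusted p under 0.05 (median 0.15), with Cct5 at 0.07 ± 0.08 and Cct2 at 0.02 ± 0.09. Of 13 other mitochondrial chaperones and proteases 1 did (median 0.06), with Hspa9, the mitochondrial HSP70, at 0.06 ± 0.08 and Trap1, the mitochondrial HSP90, at 0.09 ± 0.08. Of 14 subunits of the 20S proteasome 0 did (median 0.08), with Psma1 and Psma7 both at 0.05. Of 18 chaperones and stress genes of the endoplasmic reticulum 5 rose and 0 fell (median 0.29). At an unadjusted p under 0.05 by edgeR, 12 were higher and 0 lower. Hspa5, the HSP70 called BiP, stood at 0.58 ± 0.08 (adjusted p = 0.00381 by edgeR). Herpud1 (0.58), Xbp1 (0.56) and Creld2 (0.69) also rose. When WT library 1 or WT library 2 was left out, 0 of these 18 passed, while 10 did without KO-labelled library 1 and 2 without KO-labelled library 3. The count was 8 with DESeq2, 10 with limma, 8 with no count filter and 3 with summed transcripts, where Creld2 had an adjusted p of 0.0502. Xbp1 and Creld2 missed the threshold without KO-labelled library 3 (adjusted p = 0.0524 and 0.0517 by edgeR).

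**Figure D3:**
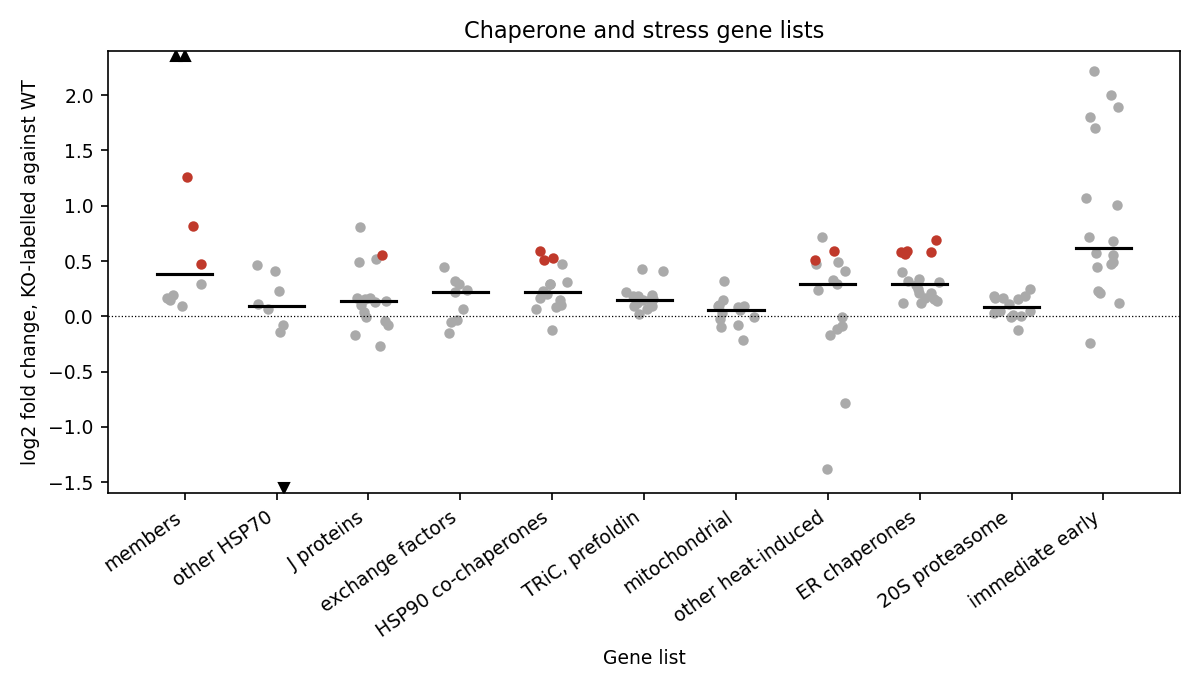
Log2 fold change of KO-labelled against WT libraries (vertical axis) for every tested gene of the 10 genes (members) and of 10 further lists; red marks genes called higher, grey those not called, and black lines list medians. Triangles at the edges stand for 3 genes beyond the axis. The called genes sit among the 10 genes, the HSP90 co-chaperones and heat-induced genes, the J proteins and the endoplasmic reticulum list, and the list medians of the proteasome and mitochondrial lists lie at 0.08 and 0.06.

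Sorting and warming of cells are known to raise both heat shock and immediate early genes, so 18 immediate early genes were set beside the chaperones. Their sum was 377, 831 and 904 CPM in KO-labelled libraries 1, 2 and 3 against 378 and 426 CPM in WT. KO-labelled libraries 2 and 3 were thus high, and KO-labelled library 1 lay at the WT level. Of the 18 genes 0 passed by edgeR or DESeq2 (median log2 fold change 0.62; 4 at an unadjusted p under 0.05, 1 called with limma), while 8 rose without KO-labelled library 1. Zfp36 stood at 0.68 ± 0.51 and Jun at 2.0 ± 0.89. In KO-labelled library 1, where the sum was 0.937 of the WT mean, Hsph1 stood at 2.58 and Hspa8 at 1.80 times their WT means, against 2.22 to 2.39 and 1.71 to 1.80 times in libraries 2 and 3. Summed Hspa1a and Hspa1b were lowest of the KO-labelled libraries in library 1 and highest in library 3. The part of sorting or handling in the chaperone results was not tested.

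Cirbp and Rbm3 encode RNA-binding proteins that are induced by mild cold. Cirbp fell, from 88.4 and 98.8 CPM in WT to 36.3, 43.7 and 45.4 CPM in KO-labelled libraries (log2 fold change -1.16 ± 0.12, adjusted p = 0.000412 by edgeR; 0.0564 without WT library 1 and 0.062 without WT library 2). Rbm3 stood at 35.9, 33.0 and 28.1 against 34.0 and 34.0 CPM (log2 fold change -0.07 ± 0.14, adjusted p = 0.877). Relative to the WT mean, Cirbp stood at 0.388, 0.466 and 0.485 in KO-labelled libraries 1, 2 and 3. Hsph1 stood at 2.58, 2.22 and 2.39 in the same libraries. A relation between Cirbp and Hsph1 was not tested. The temperature and the handling time of each sample are not given in the labels.

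**Figure D4:**
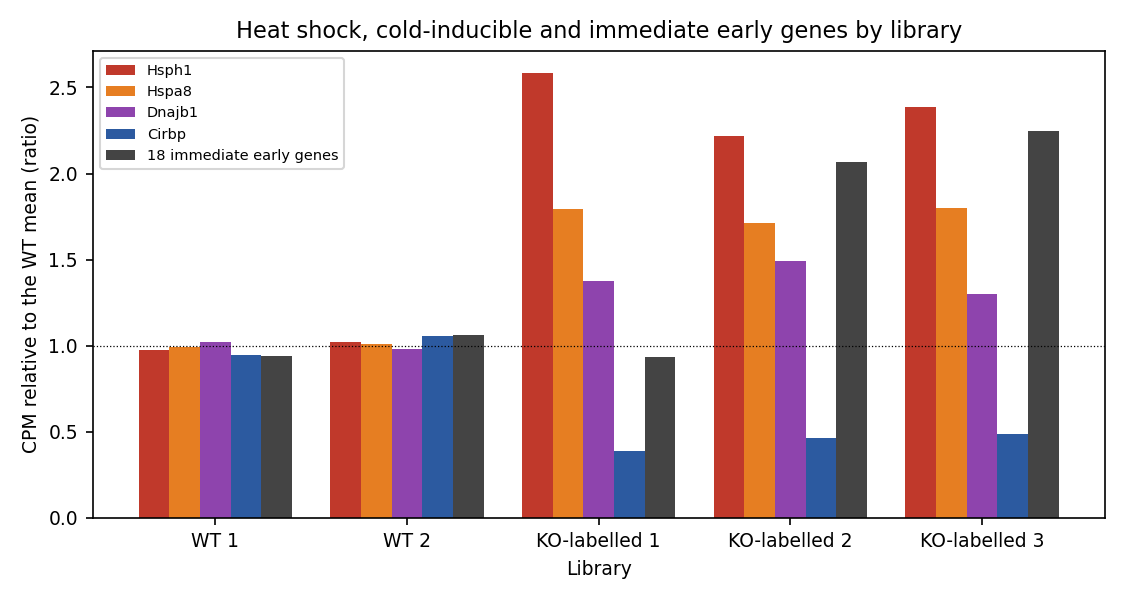
Ratio of CPM to the mean of the 2 WT libraries (vertical axis, from 0) in each library for Hsph1, Hspa8, Dnajb1, Cirbp and the summed 18 immediate early genes. Hsph1 and Hspa8 are raised and Cirbp is lowered in all 3 KO-labelled libraries, whereas the immediate early sum is raised in KO-labelled libraries 2 and 3 and lies at 0.937 in library 1.

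The profile of Hsph1 over the 5 libraries was compared with that of 12720 other tested genes at a mean of at least 1 CPM, by the root mean square difference of centred log2 CPM. The nearest genes were Tpt1 (difference 0.046), Dynll1 (0.085), Cd74 (0.137), H2-Eb1 (0.143), Mir5107 (0.145), Ddx4 (0.146), Slamf8 (0.147) and 5430416N02Rik (0.158). Dynll1, a light chain of dynein, stood at 80.2, 71.0 and 66.8 against 30.8 and 34.2 CPM. Cd74 and H2-Eb1 belong to MHC class II antigen presentation, and Cd74 stood at 506, 420 and 579 against 184 and 218 CPM. None of the 8 is a chaperone of the lists above. Tpt1 stood at only 1.30 to 3.44 CPM, so its likeness rests on few counts. For the median profile of the 10 genes, which is much flatter, the nearest were Alg8, Kif18b, Rnf181, Nfkbib, Spc24, Adat1, Prpf3 and Aplf, at differences of 0.026 to 0.041. These likenesses describe 5 libraries that fall into 2 groups, and any gene with a similar step between the groups comes out near.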

How the data were processed

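The authors deposited read counts per RefSeq transcript, taken as unnormalized because all values are whole and library totals differ, for 33862 transcripts in 5 libraries prepared with a stranded mRNA kit. STAR, Subread 1.4.5-p1, featureCounts and the builds mm9 and NCBIM37 are named in the submitters' processing notes; no source used here gives their settings, the use of strand or the handling of shared reads. Sample titles gave the groups. Symbols came from RefSeq (33485 transcripts) or GENCODE (188), and 189 matched neither. The transcript with the most counts stood for each gene.

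The test was that of edgeR 4.0.16 under R 4.3.3, after filterByExpr and TMM scaling (robust quasi-likelihood, two-sided, Benjamini-Hochberg over all tested genes, threshold 0.05). SE is the log2 fold change over the root of F, and 95% intervals use the fit's degrees of freedom. The fit was tested on simulated counts. Alternatives were DESeq2 1.42.0, limma 3.58.1 voom with sample weights, other scalings, no count filter, summed transcripts, Hspa1a and Hspa1b as 1 gene, an adjusted p under 0.10, the replicate number as a block, and each library left out. Further fits of the summed pair were added after the data were seen. The precision of a level depends on the library totals, 29964556 to 39691066 counts.

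The 10 genes and the lists were chosen with earlier results of these data known. Named genes are the 10, up to 4 called members of each list by smallest p, or the 2 most abundant where none passed, and the 8 nearest profiles. Others were named after their values were seen: Hspb1, Rbm3, Serpinh1, Cryab, Dnaja1, Hspa4l, Cacybp, Ahsa1, Zfand2a, Hmox1, Cd3e, Car1, Klf1, Slc4a1, Mpo, S100a8, S100a9 and the megakaryocyte genes. The targeted gene is not reported here.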

Additional observations from a re-analysis of the deposited data

How the results depend on the processing

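The direction of all 10 genes held in every alternative that tested them. The count of these genes called higher, 3, was 5 with DESeq2, ranged from 1 to 5 with 1 library left out, and stayed within 1.5 times otherwise; 0 were called lower throughout. The lowest came without WT library 1 and the highest without KO-labelled library 1; where 1 WT sample remained, its spread was taken from the other group. Over all genes 287 were called, and 521 with DESeq2, 624 with limma and sample weights, 455 with no count filter, 454 at an adjusted p under 0.10 and 6 to 675 with 1 library left out. Replicate numbers are shared by libraries 1 and 2 of both groups but mark no known pairing (correlation of deviations 0.043 for number 1 and 0.017 for number 2); with the replicate block 160 genes were called, and 3 of the 10 were called higher and 0 lower. With the block, summed Hspa1a and Hspa1b stood at 2.78 on the log2 scale, with an adjusted p of 0.0846, Ppid at 0.50 (adjusted p = 0.0853) and Dnajc21 at 0.56 (adjusted p = 0.108), and 4 of the other heat-induced genes were called higher. Some uncalled genes changed sign. With 1 library left out, the log2 fold change ranged from -0.04 to 0.47 for Hspb6, from -0.05 to 0.10 for Cct2, from -0.04 to 0.08 for Hsf2, from -0.11 to 0.22 for Psma1 and from -0.0049 to 0.09 for Psma7. Under limma with sample weights Cct2 and Hsf2 both stood at -0.02. The cause of these changes was not tested. Depth limits Hspa1a and Hspa1b, whose WT libraries held 0 to 13 counts.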
